A study of Homo sapiens with 9 samples.

Results

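The genes described here are 6 human genes of antioxidant and detoxification metabolism that are commonly linked to the transcription factor NRF2 (gene symbol NFE2L2). They are SRXN1, NQO1, HMOX1, TXNRD1, GCLC and GCLM, and they were chosen by symbol from 18417 genes that the array annotation named singly. The choice was made with earlier results of these data known. Each of the 6 was covered by 1 transcript cluster (a set of probes summarised to 1 value), so no choice between clusters was needed. Expression was measured in NCCIT, an established human embryonal carcinoma line with pluripotent features. In non-adherent bacterial dishes its cells clump into embryoid bodies, in which differentiation sets in. The series set out to profile the action of ethanol on such embryoid bodies. It held 4 arrays at day 7, one each with ethanol and FA, with FA, with 50 mM ethanol and without addition, 4 arrays of the same conditions at day 21, and 1 array of undifferentiated cells. FA is the labels' abbreviation, which they do not spell out, and they give no dose for it. The medium was renewed daily to keep the ethanol level, and the written protocol describes 7 days only.

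Every condition was a single array of a single line, and the labels do not say whether arrays came from separate cultures. The p-values below thus reflect spread among these arrays alone, and that spread may be technical. Values are log2 expression values as deposited, on which a step of 1 is a doubling, and levels are not compared between genes because probes differ in brightness. Of the 12 pluripotency markers on the marker list, 10 had a cluster of their own, and their mean level was 11.54 in undifferentiated cells, 11.27 to 11.38 at day 7 and 9.91 to 10.23 at day 21. Among markers of other lineages, the mean of 6 neural markers was 7.73 in undifferentiated cells, 7.46 to 7.77 at day 7 and 9.07 to 9.22 at day 21. The mean of 6 macrophage and red cell markers stayed between 6.64 and 6.91 on all arrays, with the leukocyte gene PTPRC between 4.66 and 4.71. Single markers of that list did change, and of 3 tested 1 was called higher and 1 lower with day. The red cell gene HBE1 read 6.64 in undifferentiated cells, 6.75 to 6.89 at day 7 and 7.78 to 7.93 at day 21. At day 7 the array with ethanol alone correlated with the other arrays of its day at a mean r of 0.990, against 0.994 to 0.995 for those 3. Where its removal changed a call of the 6 genes, the value without it is given. Counts in the gene lists below also shifted without it, and not all of these shifts are given.

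NRF2 is held at a low level by KEAP1, which marks it for degradation. When oxidants or electrophiles modify KEAP1, NRF2 accumulates, pairs with a small MAF protein and binds antioxidant response elements in its target genes. Among these targets, SRXN1 codes for sulfiredoxin, which restores over-oxidised peroxiredoxins, and TXNRD1 for cytosolic thioredoxin reductase, which passes electrons from NADPH to thioredoxin. GCLC and GCLM code for the catalytic and the modifier subunit of glutamate-cysteine ligase, the rate-limiting enzyme of glutathione synthesis. NQO1 codes for a quinone reductase and HMOX1 for the inducible haem oxygenase. Several of these genes also answer to other factors, and NRF2 is regulated largely as a protein, so its activity cannot be read from RNA.

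The antioxidant response element was looked for by its core letters, TGACNNNGC on either strand, in the 250 bases before each gene start in the RefSeq promoter table (build GRCh38.p14). Of the 6 genes, 5 had an entry in that table, all but HMOX1, and 2 of the 5 held the letters, GCLM and TXNRD1. The letters occurred in 10.9% of all 35116 windows of this length and in 13.2% of the 27305 genes. The windows with a match are shown so that the letters matched can be seen in their place before the start. They run 5′ to 3′ on the strand of the gene, and capitals mark the letters matched. The GCLM window is chr1:93909431-93909680 on the minus strand, where the match lies 34 to 26 bases before the start and is read on the opposite strand. TXNRD1 has a pair of starts in the table, both on the plus strand. The upstream window, chr12:104215529-104215778, holds the letters on the gene strand 99 to 91 bases before its start. The downstream window, chr12:104286782-104287031, holds them on the opposite strand 102 to 94 bases before its start.
GCLM: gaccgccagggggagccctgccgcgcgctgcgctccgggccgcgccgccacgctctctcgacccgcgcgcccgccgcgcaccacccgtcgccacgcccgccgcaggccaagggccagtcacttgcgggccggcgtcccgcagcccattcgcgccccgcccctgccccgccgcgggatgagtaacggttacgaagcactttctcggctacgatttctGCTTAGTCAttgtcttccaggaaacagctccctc
TXNRD1 upstream start: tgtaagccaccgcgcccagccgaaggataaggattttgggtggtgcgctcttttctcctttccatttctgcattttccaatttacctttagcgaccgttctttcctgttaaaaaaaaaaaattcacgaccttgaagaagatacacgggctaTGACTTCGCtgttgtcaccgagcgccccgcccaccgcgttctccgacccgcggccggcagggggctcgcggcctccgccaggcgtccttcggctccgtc
TXNRD1 downstream start: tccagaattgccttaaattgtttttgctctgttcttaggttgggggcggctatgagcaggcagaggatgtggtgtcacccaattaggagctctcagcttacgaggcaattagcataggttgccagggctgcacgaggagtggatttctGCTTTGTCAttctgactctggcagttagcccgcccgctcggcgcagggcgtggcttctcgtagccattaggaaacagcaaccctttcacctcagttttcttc
A match is a description of the sequence and not a shown binding site. The windows of SRXN1, NQO1 and GCLC held no match, which says only that these letters are absent from these 250 bases.

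With ethanol, all 6 genes had a fitted difference above 0, by 1.04-fold to 1.29-fold, as did 59.0% of all 12254 genes tested. Of the 6, 0 passed the test over all genes, which 0.685% of all genes did. SRXN1, HMOX1, TXNRD1 and GCLC were higher with ethanol in 4 of 4 matched pairs of arrays (same day, same FA), whereas NQO1 and GCLM were higher in 2 of 4. Being higher in all 4 pairs applied to 18.5% of all genes tested. The largest of the 6 differences was that of SRXN1.

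SRXN1 (cluster 8064375, chromosome 20) read 8.58 with ethanol and 8.30 with ethanol and FA at day 7, against 8.04 untreated and 7.95 with FA. At day 21 it read 8.83 with ethanol and 8.86 with ethanol and FA, against 8.56 untreated and 8.53 with FA. On each day both ethanol arrays lay above both arrays without ethanol. The fitted ethanol difference was 0.37 ± 0.07 on the log2 scale (SE of the fit, 95% interval 0.22 to 0.52), a 1.29-fold higher level, and it ranked 120 from the highest of the 12254 genes. Limma (a linear model across all genes with a shared estimate of spread) gave an adjusted p = 0.0551 with Benjamini-Hochberg adjustment, just short of the threshold of 0.05. It passed without the day 7 array with ethanol alone (difference 0.30, adjusted p = 0.0326) but had an adjusted p of 0.0538 to 0.250 without any one of the other embryoid body arrays. It also passed with the 4 matched pairs as a block (adjusted p = 0.0430), a fit chosen after seeing the data. So it did with a spread that followed brightness (adjusted p = 0.0407). With arrays weighted by their fit, an estimate that stopped before it converged, it passed too (difference 0.31, adjusted p = 0.00826). In 13 of 17 alternative fits it did not pass. Among the alternatives other than leaving out 1 array, limma's adjusted p reached 0.982.

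TXNRD1 (cluster 7958174, chromosome 12) read 10.21 with ethanol and 10.28 with ethanol and FA at day 7, against 9.95 untreated and 10.00 with FA. At day 21 it read 10.00 with ethanol and 9.93 with ethanol and FA, against 9.80 untreated and 9.82 with FA. As for SRXN1, the ethanol arrays lay above the others within each day. The fitted difference was 0.21 ± 0.05 (95% interval 0.09 to 0.33, limma adjusted p = 0.108).

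HMOX1 (cluster 8072678, chromosome 22) read 8.22 with ethanol and 8.11 with ethanol and FA at day 7, against 8.06 untreated and 8.01 with FA. At day 21 both ethanol arrays read 8.06, against 7.99 untreated and 7.79 with FA. The arrays with and without ethanol again did not overlap within a day, although the nearest came close at day 7. The fitted difference was 0.15 ± 0.05 (95% interval 0.03 to 0.27, limma adjusted p = 0.196). Of all genes tested, 11.8% had this pattern of both ethanol arrays above both others on each day, and 3 of the 6 genes had it.

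GCLC (cluster 8127158, chromosome 6) read 9.18 with ethanol and 9.42 with ethanol and FA at day 7, against 9.05 untreated and 8.98 with FA. At day 21 it read 9.60 with ethanol and 9.41 with ethanol and FA, against 9.49 untreated and 9.25 with FA. The day 21 array with ethanol and FA lay below the untreated one, so the groups overlapped there. The fitted difference was 0.21 ± 0.08 (95% interval 0.02 to 0.40, limma adjusted p = 0.255), and leaving out the ethanol and FA array of day 7 gave 0.11.

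GCLM, the partner subunit, was dim. Its cluster (7917779, chromosome 1) lay below 7.71, the median of all values, on all 8 embryoid body arrays. It read 7.29 with ethanol and 7.55 with ethanol and FA at day 7, against 7.38 untreated and 7.37 with FA. At day 21 the ethanol arrays read 7.70 and, with FA, 7.67, against 7.70 untreated and 7.53 with FA. The fitted difference was 0.05 ± 0.07 (95% interval -0.11 to 0.22, limma adjusted p = 0.738).

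NQO1 (cluster 8002303, chromosome 16) differed in sign between the days. At day 7 it read 8.87 with ethanol and 8.86 with ethanol and FA, against 8.60 untreated and 8.73 with FA. At day 21 it read 8.78 with ethanol and 8.85 with ethanol and FA, against 8.89 untreated and 8.93 with FA. The ethanol arrays thus lay above the others at day 7 and below them at day 21. The ethanol by day term, the day 21 difference minus the day 7 difference, was -0.29 ± 0.10 (95% interval -0.52 to -0.06). It had an unadjusted p = 0.0215 in limma but an adjusted p = 0.546, and 0 of the 6 genes and 0.00816% of all genes (SHISA3 alone) passed for this term. The averaged ethanol difference was 0.05 ± 0.07 (95% interval -0.11 to 0.21, limma adjusted p = 0.744), and its sign turned without the untreated day 7 array (-0.0018) or the day 7 array with ethanol alone (-0.00052).

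**Figure D1:**
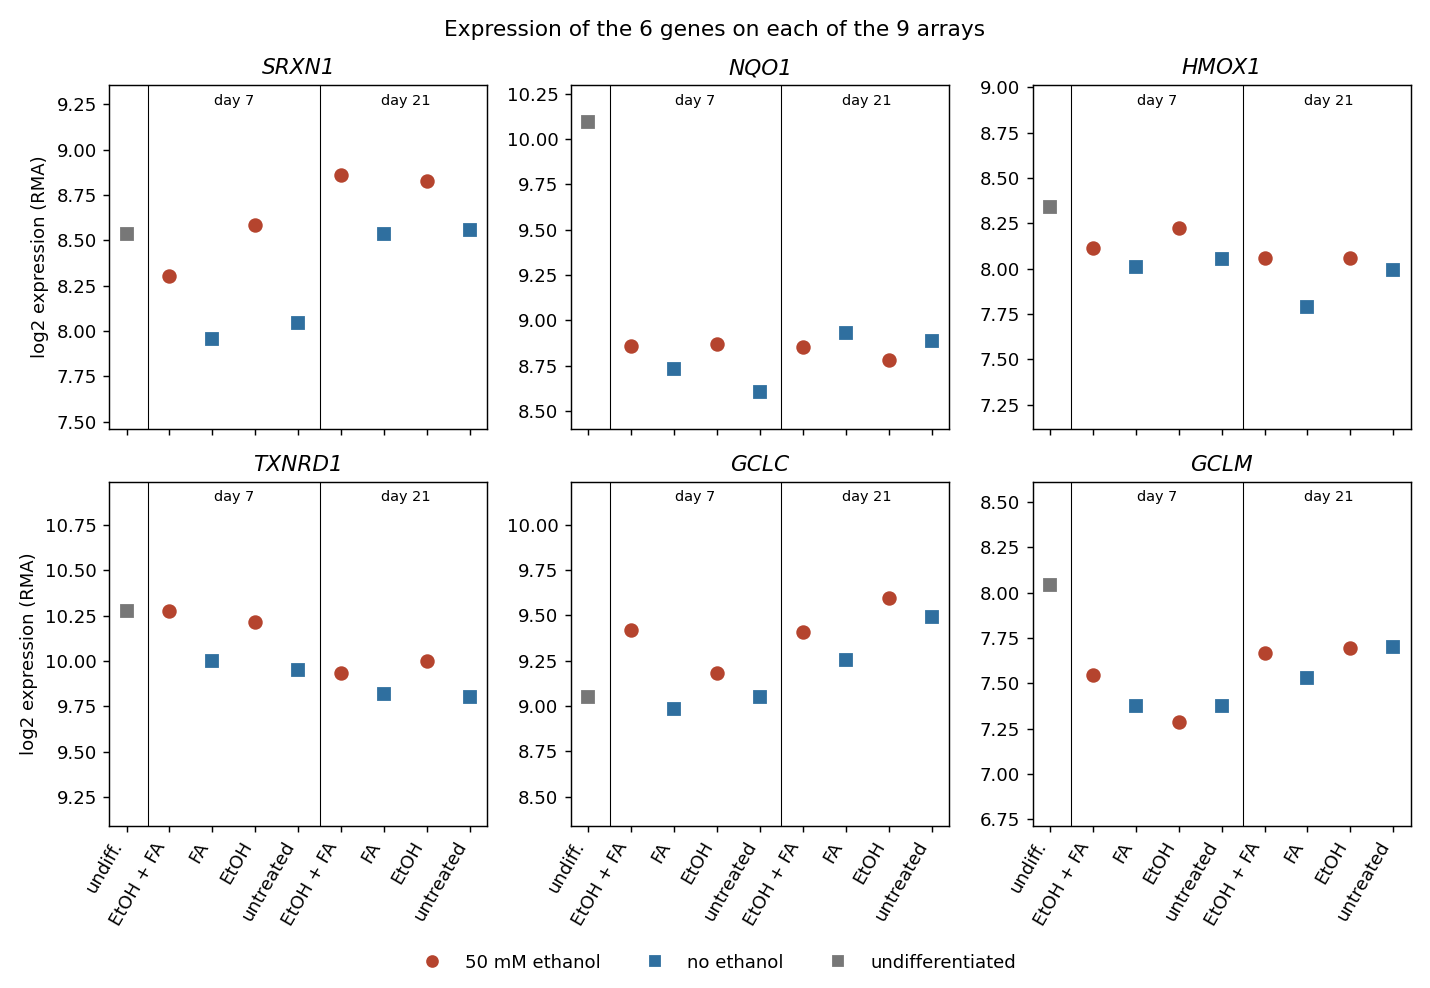
Log2 expression of the 6 genes (vertical axis, an equal span in each panel) on each of the 9 arrays (horizontal axis, 1 point per array, no replicates). Within each day the 2 ethanol points (red circles) of SRXN1, TXNRD1 and HMOX1 sit above both points without ethanol (blue squares), and the undifferentiated point (grey) of NQO1 stands at 10.10, above all 8 embryoid body points.

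**Figure D2:**
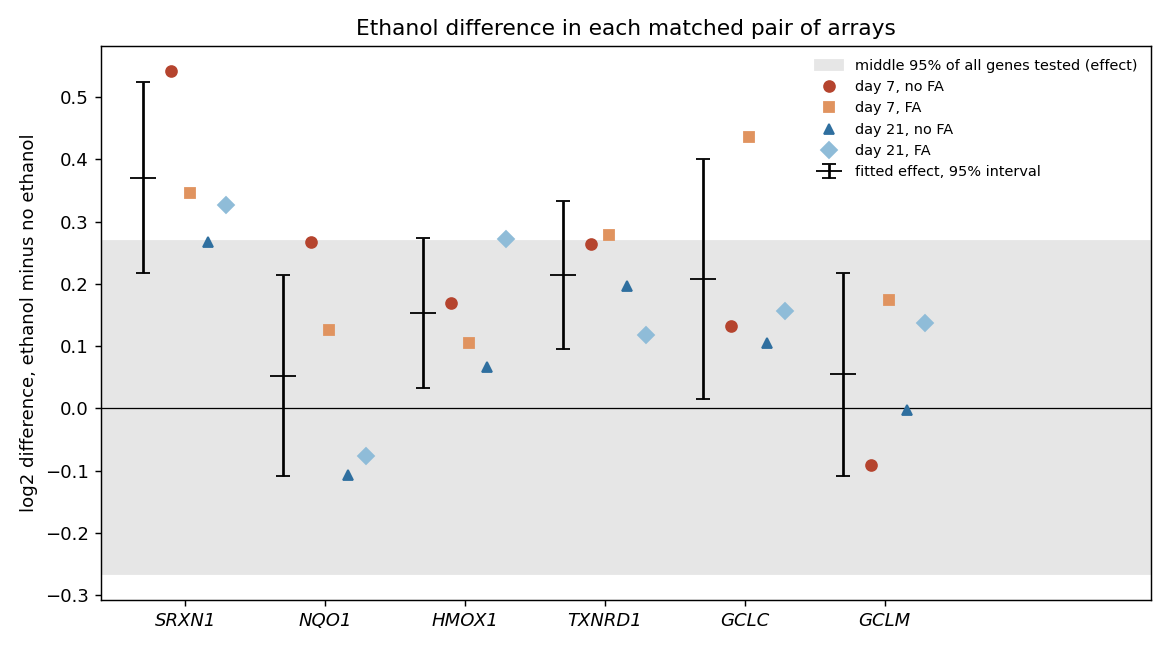
Log2 difference of ethanol minus no ethanol in each of the 4 matched pairs (coloured points) with the fitted effect and its 95% interval (black) for each gene. The grey band spans the middle 95% of fitted effects over the 12254 genes tested, -0.27 to 0.27, and the fitted effect of SRXN1, 0.37, lies above it.

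Read as a group, the 6 genes had a median ethanol difference of 0.18 on the log2 scale, against 0.02 over all genes tested. The group was chosen with earlier results of these data known, so its median and counts are a description. In limma 4 of the 6 had an unadjusted p under 0.05 (SRXN1, TXNRD1, HMOX1 and GCLC), as did 2144 of all genes. Of all genes 0.563% passed as higher and 0.122% as lower. In the pair named in the series design, day 7 without FA, the differences were 0.54 for SRXN1, 0.27 for NQO1, 0.26 for TXNRD1, 0.17 for HMOX1, 0.13 for GCLC and -0.09 for GCLM. None of the 6 reached 1.5-fold in any of the 4 pairs. In the day 7 pair without FA, 0.539% of all genes were at least that much higher and 2.28% lower, and in the day 7 pair with FA 0.677% and 0.196%. At day 21 these shares were 0.408% and 0.237% without FA and 0.441% and 0.351% with FA. Each pair has 1 array a side and no test, and the ethanol array of the day 7 pair without FA is the one that correlated least with its day. With arrays weighted by their fit, an estimate that stopped before it converged, 3 of the 6 passed as higher, SRXN1, TXNRD1 and HMOX1, as did 5.48% of all genes. Among the marker lists, 0 of 10 pluripotency markers and 1 of 6 neural markers, NCAM1 (0.47 ± 0.05, limma adjusted p = 0.0227, named after its value was seen), passed for ethanol, and their part in these differences was not tested.

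For FA 0 of the 6 genes passed, with 0% of all genes. The fitted FA differences ran from -0.09 ± 0.05 for HMOX1 and -0.09 ± 0.07 for SRXN1 to 0.06 ± 0.07 for NQO1. The 95% interval of HMOX1 was -0.21 to 0.03, and that of SRXN1 was -0.24 to 0.06, so small effects in either direction were not resolved. GCLC (-0.06 ± 0.08), TXNRD1 (0.02 ± 0.05) and GCLM (0.02 ± 0.07) lay between them. HMOX1 was lower with FA in 4 of 4 pairs, from -0.0010 to -0.21, which applied to 4.54% of all genes. In limma 0 of 12254 genes passed for FA, with 121 at an unadjusted p under 0.05, none of them among the 6. Whether FA changed the response to ethanol was asked with an ethanol by FA term, in which 0 of the 6 and 0% of all genes passed, and the 6 genes had adjusted p = 0.994. The FA by day term passed for 0 genes too, with 1496 genes at an unadjusted p under 0.05 for that term and 100 for ethanol by FA. The 6 genes had adjusted p from 0.403 (GCLC) to 0.991 (NQO1) for FA by day.

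Between the days the 6 genes parted. SRXN1 and both subunits of glutamate-cysteine ligase rose at day 21 relative to day 7, TXNRD1 fell, and NQO1 and HMOX1 did not pass. Among all genes tested 48.9% passed for day. SRXN1 had the largest difference, 0.47 ± 0.07 (1.39-fold, limma adjusted p = 0.000676), and it was higher at day 21 in 4 of 4 pairs that shared ethanol and FA. Its 4 differences were 0.56 with ethanol and FA, 0.58 with FA, 0.24 with ethanol and 0.52 untreated. The smallest came from the pair with the day 7 ethanol array, and without that array the fitted difference was 0.54.

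GCLC rose by 0.28 ± 0.08 (limma adjusted p = 0.0249) and GCLM by 0.25 ± 0.07 (adjusted p = 0.0192). The 4 differences of GCLC were -0.0097 with ethanol and FA, 0.27 with FA, 0.41 with ethanol and 0.44 untreated. Those of GCLM were 0.12 with ethanol and FA, 0.16 with FA, 0.41 with ethanol and 0.32 untreated. Both subunits thus differed least between the days in the pair with ethanol and FA. Over the 8 embryoid body arrays the subunits had a Pearson r of 0.88 with each other, a description of 8 points that share their conditions, and of 0.25 over all 9 arrays. Both calls were lost (adjusted p 0.0531 to 0.0884) without any one of 4 arrays, the untreated arrays of both days, the day 7 FA array or the day 21 ethanol array. GCLC was also lost without the day 7 array with ethanol alone (adjusted p = 0.0527).

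TXNRD1 fell by 0.22 ± 0.05 on the log2 scale at day 21 (limma adjusted p = 0.00862) and was lower in 4 of 4 pairs, with differences of -0.34 with ethanol and FA, -0.18 with FA, -0.21 with ethanol and -0.15 untreated. HMOX1 was lower in 4 of 4 pairs too, at -0.13 ± 0.05 (limma adjusted p = 0.0790). NQO1 had a difference of 0.10 ± 0.07 (adjusted p = 0.272) and was higher at day 21 in 2 of 4 pairs, those without ethanol.

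Of the 6 genes 3 rose and 1 fell with day, where 26.3% of all genes rose and 22.6% fell. SRXN1 and GCLM were higher in all 4 pairs, which applied to 30.9% of all genes, and TXNRD1 and HMOX1 lower in all 4, which applied to 28.3%. After centring of every array on its own median, the numbers over all genes were 3841 higher and 2106 lower, against 3224 and 2771 on the deposited scale, and the 6 genes had the same calls. For none of the 6 did the 4 day 21 arrays lie clear of the 4 day 7 arrays, as they did for 46% of all genes. Without any one of the 4 arrays named above, 2 of the 6 passed, SRXN1 and TXNRD1. Among the marker lists, 9 of 10 pluripotency markers fell with day and 4 of 6 neural markers rose, with median differences of -1.10 and 1.56. LIN28B (0.66 ± 0.07) and the neural gene STMN2 (-0.62 ± 0.12) went the other way. The part of these markers in the differences was not tested, and in RNA from whole aggregates fewer cells of a type and less RNA per cell cannot be told apart.

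Fitted differences from undifferentiated cells, here and for the lists below, use the embryoid body level without ethanol or FA, averaged over both days. Against undifferentiated cells, NQO1, TXNRD1 and HMOX1 were lower at that embryoid body level, and 28.1% of all genes tested passed in either direction. GCLM passed too, but its direction was fixed by the filter on dim genes, as given below. NQO1 had by far the largest difference of the 6. It read 8.60 to 8.93 on the 8 embryoid body arrays, against 10.10 in undifferentiated cells. Every embryoid body array was thus more than 1 log2 unit below. The fitted untreated level, averaged over both days, was -1.34 ± 0.12 from the undifferentiated array (limma adjusted p = 0.000601), a 2.53-fold lower level, and it ranked 38 from the lowest of 12254 genes.

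GCLM read 7.29 to 7.70 on the embryoid body arrays, against 8.04 in undifferentiated cells, a fitted difference of -0.56 ± 0.12 (limma adjusted p = 0.0109). It passed the filter on dim genes through the undifferentiated array alone, so it could be tested only because it was higher there, and its difference is a description. HMOX1 read 7.79 to 8.22, against 8.34 in undifferentiated cells (-0.33 ± 0.09, adjusted p = 0.0236). Of the 5 genes that passed the filter on embryoid body arrays, 2, NQO1 and HMOX1, had all 8 of these arrays below the undifferentiated one, which applied to 26.9% of all genes. These 8 differences share 1 undifferentiated array and are not independent.

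TXNRD1 read 9.80 to 10.28 on the embryoid body arrays, against 10.28 in undifferentiated cells (-0.39 ± 0.09, limma adjusted p = 0.0122). Its day 7 array with ethanol and FA was level with the undifferentiated array, and the untreated and FA arrays of day 21 were the lowest. SRXN1 read 7.95 to 8.86, against 8.53 in undifferentiated cells, which lay inside the range of the embryoid bodies. Its day 7 arrays without ethanol were below that level and its day 21 arrays at or above it. The fitted difference, which is for embryoid bodies without ethanol or FA, was -0.22 ± 0.11 (limma adjusted p = 0.183). Without the day 7 array with ethanol alone SRXN1 passed as lower (-0.25, adjusted p = 0.0274). GCLC read 8.98 to 9.60, against 9.05, and was the 1 gene of the 6 with a difference above 0 (0.17 ± 0.14, 95% interval -0.14 to 0.49, adjusted p = 0.403).

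Leaving GCLM aside, 3 of 5 genes passed as lower and 0 as higher, where 17.2% of all genes passed as lower and 11% as higher. The median of the 5 was -0.33, against -0.05 over all genes tested. Without the untreated day 7 array only NQO1 of the 5 passed, while TXNRD1 had an adjusted p of 0.0519 and HMOX1 of 0.0799. HMOX1 also missed the threshold without the day 7 FA array (adjusted p = 0.0516). All values of this comparison rest on 1 undifferentiated array, whose spread was taken from the embryoid body arrays. Of the pluripotency markers 7 of 10 fell in this comparison and 4 of 6 neural markers rose while STMN2 fell (-0.75 ± 0.20), with median differences of -1.03 and 0.56, and their part in it was not tested.

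**Figure D3:**
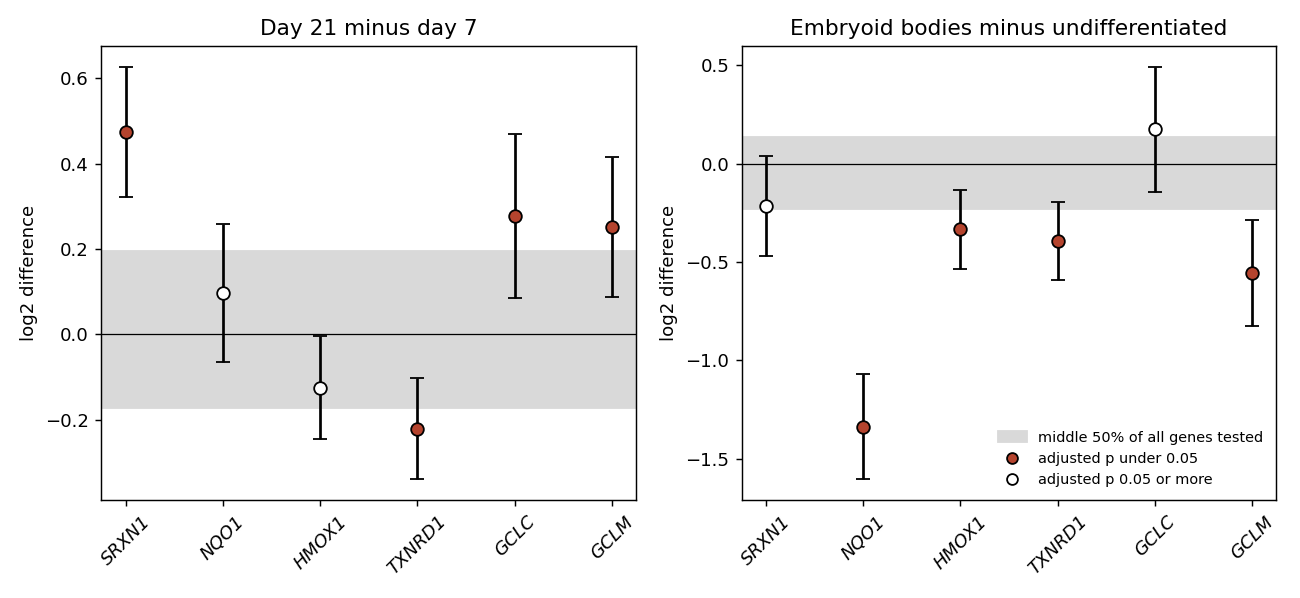
Fitted log2 differences of the 6 genes with 95% intervals, day 21 minus day 7 on the left and embryoid bodies minus undifferentiated cells on the right. The embryoid body level on the right is the fitted one without ethanol or FA. Filled points passed the adjusted threshold, the grey band is the middle 50% of all genes tested, and NQO1 at -1.34 is the lowest point on the right.

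The genes that control NRF2 were measured on the same arrays. NFE2L2, the NRF2 gene itself, read 10.86 with ethanol, 10.97 untreated, 10.96 with ethanol and FA and 10.80 with FA at day 21. At day 7 it read 10.08 with ethanol, 9.76 untreated, 10.24 with ethanol and FA and 9.69 with FA. Its day 21 arrays lay clear of its day 7 arrays, and it rose by 0.95 ± 0.10 (limma adjusted p = 0.000132). KEAP1, whose product restrains NRF2, rose with day too (0.56 ± 0.08, adjusted p = 0.000657), while the small MAF gene MAFG fell (-0.46 ± 0.05, adjusted p = 0.000185). CUL3, the ligase scaffold that works with KEAP1, rose (0.37 ± 0.06) and NFE2L1, an NRF2 relative, fell (-0.38 ± 0.06), both named after their values were seen. Of 7 tested control genes, 3 rose and 2 fell with day, where 48.9% of all genes passed, 0 passed for ethanol, and 1, NFE2L1, was lower in embryoid bodies than in undifferentiated cells (-0.29 ± 0.09, adjusted p = 0.0474), a call lost without any one of the untreated day 7, FA day 7 or day 21 arrays. MAFK had no cluster of its own and MAFF was below the filter.

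Across 7 lists of NRF2 control genes, other NRF2 targets and wider redox, NADPH, haem and iron genes, 71 of 91 genes were tested. Between embryoid bodies and undifferentiated cells 32 of the 71 fell and 4 rose, with a median of -0.31, against -0.05 over all genes tested, of which 17.2% fell and 11% rose. Without the day 7 array with ethanol alone 37 fell and 8 rose, and once the ethanol and FA array of day 7 was left out 35 fell and 8 rose. Without the untreated day 7 array 23 fell and 3 rose. In the glutathione list 14 of 20 fell and 1 rose. At the fitted level without ethanol or FA, the glutathione-degrading enzyme gene CHAC1 (-2.14 ± 0.15) and the cystine transporter gene SLC7A11 (-1.80 ± 0.21) fell most. SLC7A11 read 11.58 in undifferentiated cells, against 11.64 with ethanol and 11.38 with ethanol and FA at day 7. Its other embryoid body arrays read 9.12 to 10.35. CHAC1 read 10.55 in undifferentiated cells and 7.69 to 9.96 in embryoid bodies. The glutathione transferase gene GSTM3 rose (1.10 ± 0.12). Without the untreated day 7 array 9 of the 20 fell, and 11 to 16 did without any one of the other embryoid body arrays.

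In the NADPH list 5 of 7 fell, led by the transketolase gene TKT (-0.87 ± 0.10), the isocitrate dehydrogenase gene IDH1 (-0.56 ± 0.10) and the transaldolase gene TALDO1 (-0.48 ± 0.09). The other two, named after their values were seen like the further genes here that complete a count, were PGLS (-0.43 ± 0.08) and PGD (-0.36 ± 0.08) of the pentose phosphate pathway. The thioredoxin and peroxiredoxin list had 5 of 12 lower and 0 higher, among them PRDX4 (-0.53 ± 0.12) and PRDX1 (-0.38 ± 0.09), which code for peroxide-reducing peroxiredoxins, and the methionine sulfoxide reductase gene MSRB1 (-0.45 ± 0.09). TXN2 (-0.37 ± 0.09), the mitochondrial thioredoxin gene, and PRDX6 (-0.31 ± 0.08) completed the 5. Without the untreated day 7 array 3 of the 12 were lower. The haem and iron list had 3 of 9 lower, with HMOX2, the constitutive haem oxygenase gene, at -0.70 ± 0.09 and ALAS1, the first enzyme of haem synthesis, at -0.46 ± 0.08, and FECH, the last enzyme of that synthesis, at -0.39 ± 0.10. The ferritin light chain gene FTL rose there (0.56 ± 0.12), though not without the untreated day 7 array. Fewer genes of this list passed as lower without either the untreated or the FA array of day 7. Over all genes tested 17.2% passed as lower and 11% as higher in this comparison. Near these shares, other NRF2 targets had 3 of 14 lower and 2 higher, which says nothing particular about that list. Those lower were EPHX1 (-0.81 ± 0.09), CES1 (-0.71 ± 0.12) and CBR1 (-0.70 ± 0.10), genes of detoxifying enzymes. Those higher were AKR1C1 (0.56 ± 0.11) and ABCC4 (0.40 ± 0.10), and fewer passed as higher without the untreated day 21 array. AKR1C1 has near-identical neighbours whose probes can share signal. Of 2 tested superoxide and peroxide genes, SOD2, the mitochondrial superoxide dismutase gene, fell (-0.35 ± 0.09), though not once the day 7 FA array or the untreated one of day 21 was left out. Limma's adjusted p for the genes named from these lists lay between 0.000302 and 0.0230.

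With day 15 of the 71 genes rose and 17 fell, shares near the 26.3% and 22.6% of all genes, so the counts say nothing particular about these lists. With every array centred they were 20 and 15, and without the day 7 array with ethanol alone 17 and 22. GSTM3 (1.81 ± 0.07), the iron exporter gene SLC40A1 (1.47 ± 0.10), the aldo-keto reductase gene AKR1C2 (1.03 ± 0.08), the drug exporter gene ABCC4 (0.76 ± 0.06) and SOD1 (0.59 ± 0.06), the cytosolic superoxide dismutase gene, rose. So did RPIA (0.46 ± 0.07), UGDH (0.43 ± 0.08), FECH (0.42 ± 0.06) and PRDX6 (0.27 ± 0.05). SLC7A11 (-1.51 ± 0.13), CHAC1 (-1.36 ± 0.09), TXNIP (-1.18 ± 0.30), which codes for a thioredoxin-binding protein, and TKT (-0.79 ± 0.06) fell. The transferrin receptor gene TFRC (-0.36 ± 0.09), IDH1 (-0.27 ± 0.06) and PRDX3 (-0.26 ± 0.05) fell less. Limma gave these genes an adjusted p from 7.65e-07 to 0.0124. AKR1C2 has near-identical neighbours whose probes can share signal.

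Under ethanol 3 of the 71 rose and 0 fell, where 0.563% of all genes rose and 0.122% fell. All 3 were in the glutathione list, and with every array centred 2 passed. SLC7A11 read 11.64 with ethanol and 11.38 with ethanol and FA at day 7, against 10.29 untreated and 10.35 with FA. At day 21 it read 9.79 and, with FA, 9.59 under ethanol, against 9.13 untreated and 9.12 with FA. CHAC1 read 9.96 with ethanol and 9.60 with ethanol and FA at day 7, against 8.92 untreated and 8.88 with FA. At day 21 it read 8.33 with ethanol and 8.13 with ethanol and FA, against 7.78 untreated and 7.69 with FA. For both genes the ethanol arrays lay above the others on each day, with fitted differences of 0.88 ± 0.13 and 0.68 ± 0.09 (limma adjusted p = 0.0358 and 0.0294). SLC3A2, the heavy chain that partners SLC7A11 at the membrane, differed by 0.32 ± 0.05 (limma adjusted p = 0.0493) and was higher in 4 of 4 pairs. The number called in the glutathione list was 0 without any one of the untreated or FA arrays of either day or the ethanol arrays of day 21, 2 once the ethanol and FA array of day 7 was left out, and 4 without the day 7 array with ethanol alone. The control genes, the thioredoxin and peroxiredoxin genes, the NADPH genes, the haem and iron genes, the other targets and the superoxide and peroxide genes had 0 called in either direction. Over all 71 genes 6 passed without the day 7 array with ethanol alone, and 4 once the ethanol and FA array of day 7 was left out. With arrays weighted by their fit, an estimate that stopped before it converged, 12 of the 71 rose, as did 5.48% of all genes. Of these 12, 6 were in the glutathione list, 3 among the other targets, 2 among the NADPH genes and 1 among the haem and iron genes. For FA 0 of the 71 passed.

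**Figure D4:**
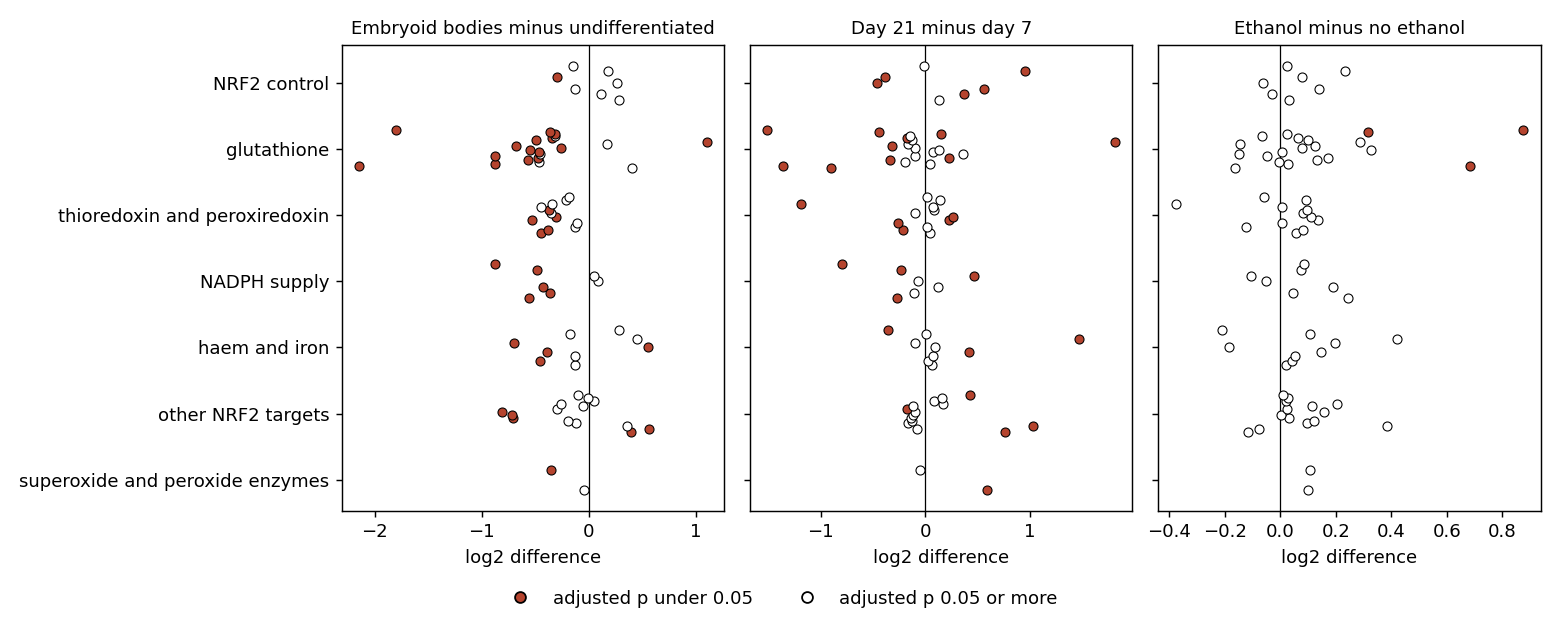
Fitted log2 differences (horizontal axis) of the 71 tested genes in 7 lists (rows), 1 point per gene. The panels show embryoid bodies (fitted level without ethanol or FA) minus undifferentiated cells, day 21 minus day 7 and ethanol minus no ethanol. Horizontal scales differ between panels. Filled points passed the adjusted threshold, and of the filled points on the left 32 lie below 0 and 4 above.

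The genes whose profiles were most like those of the 6 were found by Pearson correlation over the 9 arrays, over all genes tested. SRXN1 was nearest to HERPUD1, an endoplasmic reticulum stress gene (r = 0.992), PKIG (0.987) and MAT2A, which codes for an enzyme of S-adenosylmethionine synthesis (0.981). NQO1, whose undifferentiated array stood apart, was nearest to the stress response factor gene ATF4 (0.993), FXR2 (0.990) and AKIRIN2 (0.989). HMOX1 was nearest to CYB5A (0.976), NDUFA6 (0.965) and the amino acid transporter gene SLC38A2 (0.963). TXNRD1 was nearest to ATG16L1 (0.975), SYT14 (0.975) and SLC2A6 (0.975), GCLC to MIER1 (0.982), GXYLT1 (0.981) and DNAJC3 (0.976), and GCLM to AMMECR1L (0.987), SUPT16H (0.975) and CPSF3 (0.974). These correlations were picked as the highest among 12254 genes over 9 points and carry no test. None of the 6 was among the nearest of another. The highest correlation within the 6 over 9 arrays was that of HMOX1 with TXNRD1 (r = 0.83), followed by NQO1 with GCLM (0.79) and SRXN1 with GCLC (0.70). Over the 8 embryoid body arrays NQO1 and GCLM had an r of 0.38, HMOX1 and TXNRD1 of 0.77 and SRXN1 and GCLC of 0.79. The highest over those 8 was that of GCLC with GCLM (0.88).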

How the data were processed

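Trizol-extracted RNA was hybridised as biotinylated cDNA to Affymetrix arrays, per the labels' protocols. The deposited values are log2 expression values that the authors made by RMA, a background correction with quantile normalization and probe summary. The software was Affymetrix Expression Console 1.3.1, as the submitters' processing notes say. That the scale is log2 was read from the values, which ran from 2.49 to 14.3. RMA evens out array distributions and compresses dim genes. Apart from the promoter table (GRCh38.p14), the sources used here give no genome build. Of 33297 clusters, 19460 had 1 gene symbol, 1754 several and 12083 were unnamed here, and the RefSeq table changed 0 symbols. For genes with several clusters the brightest was used. Genes entered the tests when at least 1 array was above 7.71, the overall median, which left 12254 of 18417.

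One additive model per gene, with terms for ethanol, FA, day and the undifferentiated array, was fitted over all 9 arrays with limma 3.58.1 in R 4.3.3 (4 residual degrees of freedom, prior 3.94). The residual replaces replicate error, so interactions inflate it. Interactions were tested by adding 1 term. P-values were Benjamini-Hochberg adjusted over the genes tested (threshold 0.05). The ethanol fit was tested on simulated data with added differences larger than those of the 6 genes, so that test does not cover smaller ones. The 6 genes, the lists and the tests were chosen with earlier results of these data known. Genes named in the text were the 6, their 3 nearest profiles, and up to 3 called genes of each list with the largest difference; provisional names and small RNAs were passed over. Alternatives changed the filter, cluster rule, centring, spread model, array weights, model terms, pairing and arrays included. The number of arrays limits precision.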

Additional observations from a re-analysis of the deposited data

How the results depend on the processing

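Replicate numbers pair no samples here, since each condition had 1 array. A paired fit with the 4 matched pairs of an effect as a block, chosen after seeing the data, called 1 of the 6 genes for ethanol (SRXN1), 0 for FA and 4 for day. For the 6 genes, ethanol calls otherwise numbered 0, against 1 with a spread that followed brightness, 3 with array weights (whose estimation stopped before it converged) and 0 to 1 when arrays were left out in turn. Day calls numbered 4, against 2 under the stricter filter, which removed SRXN1, HMOX1 and GCLM, 6 with array weights and 2 to 4 without single arrays. Differentiation calls numbered 4 with GCLM included, against 2 under the stricter filter and 2 to 5 without single arrays. FA and interaction calls were 0 under every alternative run. Over all genes, ethanol calls numbered 84, against 54 without a filter, 155 with a spread that followed brightness, 963 with array weights, 0 with the ethanol term alone and 0 to 212 without single arrays. The 212 came without the day 7 array with ethanol alone, 129 once the ethanol and FA array of day 7 was left out, and 0 to 3 without any one of the other embryoid body arrays. Day calls were 5995, against 3731 under the stricter filter. Differentiation calls were 3449, against 5896 with array weights and 2107 (without the untreated day 7 array) to 4825 without single arrays. Ethanol by day calls were 1, against 0 without a filter and 3 with array weights. Signs turned only for differences near 0. With array weights they were -0.023 for ethanol on NQO1 and -0.040 for FA on GCLM. Without single arrays, ethanol on NQO1 ran from -0.0018 to 0.093 (-0.00052 without the day 7 array with ethanol alone) and on GCLM from -0.0041 to 0.12, and FA on GCLM from -0.049 to 0.066 and on TXNRD1 from -0.0098 to 0.051. The cause of these changes was not tested. Centring each array turned no sign of the 6 genes. The counts for the pathway lists under other settings were chosen after seeing the data. With 4 residual degrees of freedom, intervals of about 0.15 either side limit what an effect of ethanol or FA could show.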
